A study of Mus musculus with 4 samples.

Results

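A read pileup is a place at which many sequenced fragments begin at the same base of the same strand. In the rRNA-depleted libraries of mouse small intestine and colon, 1647 of 1815145 start points on chromosomes held 100 or more uniquely placed reads in at least 1 of the 2 libraries, 704 of them in small intestine and 1317 in colon. A start point is the strand and the first base of a read, and reads placed across exon-exon junctions were not included. The pileups were chosen by these measured read numbers, so read numbers in the rRNA-depleted libraries are given as a description, with no test. Of the 1647 pileups, 156 lay in 1 exon of Lars2 and are described apart, and 1491 lay elsewhere. The libraries were made from frozen total tissue of C57BL/6 mice, 9 to 10 weeks old and with no treatment, so that epithelium, muscle and immune cells were sequenced together. For the rRNA-depleted libraries, a SOLiD V2 Whole Transcriptome Analysis Kit had been used on RNA freed of ribosomal RNA. For the cDNA fragmented libraries, polyadenylated RNA had been copied by SMART cDNA synthesis before fragment libraries were built. The paper describes fragmented double-stranded cDNA there and took orientation from its other protocol. The strand of a cDNA read is therefore not taken here as the strand of its RNA. There was 1 library per tissue and protocol, the number of animals behind each library is not given in the sources used here, and no replicate error can be calculated.

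Fragments of a long messenger RNA begin at many places, whereas a small RNA has fixed ends and can be read from its own first base. Box C/D small nucleolar RNAs are such RNAs: they guide the 2′-O-methylation of ribosomal RNA, are cut from introns of host genes, carry the box C motif close to their 5′ end and have no poly(A) tail. RNase MRP RNA is part of an enzyme that cuts precursor ribosomal RNA, and U6 is a small nuclear RNA of the spliceosome. In the intestine, Paneth cells of the small intestine secrete α-defensins and lysozyme, enterocytes make apolipoproteins for lipid transport, and the colon is rich in mucus-secreting goblet cells.

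The first 30 bases of the windows that carry the pileups in small RNAs are shown first, because the position of the core of box C (the letters TGATG) in the read shows where on the RNA the reads began. All sequences are genomic sequence of build mm9, printed 5′ to 3′ on the strand of the reads, and were taken from the genome file, not from reads. The capitals mark TGATG. The next 6 windows hold it.
Snord34 (chr7:52382009-52382038, minus strand): cgtctgTGATGttctgctattacctacatt
AL671866.1 (chr4:116828423-116828452, minus strand): gcggaTGATGacacctgggtatgctgcaca
SNORD75 (chr1:162965981-162966010, plus strand): agcccaTGATGgtatgagagtagtggacag
Snord104 (chr11:106362305-106362334, plus strand): cggcgaTGATGacactccatacatagcacg
SNORD44 (chr1:162966814-162966843, plus strand): ctgcaTGATGacgaacaaatactgactacc
AC102570.1 (chr1:9932597-9932626, minus strand): gcacaaTGATGacttaagtttttgccgttt
The second AC102570.1 window begins 33 bases further along the same RNA and, like the window at the 5′ end of RNase MRP RNA, holds no TGATG.
AC102570.1 (chr1:9932564-9932593, minus strand): cagctgagtgtttctttgaagagagaatct
RNase_MRP (chr4:43505902-43505931, minus strand): agctcgctctgaaggcctgtttcctaggct
In 4 further windows the capital marks a base at which nearly all reads of the pileup carried another base.
Lars2 (chr9:123370976-123371005, plus strand): cttgatcttgattttcagtaGgaatacaga
Lars2 (chr9:123371035-123371064, plus strand): gaccttttgggttttaagcaggaTgtgtca
U6 (chr7:13516145-13516174, plus strand): tactaaaattggaacgatacagGgaagatt
A window with no gene on its strand (chr4:43526333-43526362, minus strand): gggTgtgtagctcagtggtagagcatttga

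Pileup reads made up 403087 reads (19.95% of the reads on chromosomes) in the rRNA-depleted small intestine library and 509668 (14.8%) in the colon library. These libraries held 2035386 and 3478387 uniquely placed reads, and the cDNA fragmented libraries of small intestine and colon held 22484041 and 24798934. Levels are given as read numbers or as RPM, the reads per 1000000 uniquely placed reads of the library. Reads copied by PCR are not independent molecules, so all intervals (95%, exact binomial for shares and exact Poisson for counts) cover counting error only. For a count of 0, up to 3 reads are taken as allowed, a 1-sided limit, while the 2-sided interval ends at 3.69. Outside Lars2, the 1491 pileups fell into 1010 blocks of start points within 35 bases of each other, which share molecules and are not independent. The intervals for shares of start points do not allow for this. Of the 1491, 1367 lay in exons of protein-coding genes (990 in coding sequence and 377 in the noncoding part of an exon), 84 in small RNAs and 25 in long noncoding RNAs. A further 12 lay in no exon of GENCODE M1, the annotation used here, although in RefSeq exons of the matching reference. In addition, 2 lay in genes of another type and 1 opposite an exon of a gene. The pileups lay in 479 genes, 282 of which held 1 pileup, while 27 held 10 or more. The first base of 1468 (98.5%) lay in an annotated exon of the same strand. Over all start points this share was 96.7% in small intestine and 97.4% in colon, so the share at pileups was close to that of all start points.

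The 12 pileups outside Lars2 with most reads in small intestine included 8 in small nucleolar RNAs, and so did 5 of the 12 in colon. At SNORD75 (base 162965981 of chromosome 1), 3812 reads (3692 to 3935) were found in small intestine and 8645 (8464 to 8829) in colon, whereas both cDNA fragmented libraries held 0 reads there. At Snord34 (base 52382038 of chromosome 7), the numbers were 3023 (2916 to 3133) and 12414 (12197 to 12634), again with 0 reads in both cDNA fragmented libraries. AL671866.1 had 2906 (2801 to 3014) and 8657 (8476 to 8841) reads and likewise 0 by cDNA fragmentation. These 3 places were thus among the deepest of the rRNA-depleted libraries of both tissues and empty in the more deeply sequenced cDNA fragmented libraries. Snord104 (base 106362305 of chromosome 11) ran the other way between tissues, with 3243 (3132 to 3357) reads in small intestine and 2746 (2644 to 2851) in colon, or 1593 and 789 RPM, and had 1 and 3 cDNA reads. SNORD44 was read from neighbouring bases, 1809 and 1596 times in small intestine and 2096 and 1044 times in colon, with 1 cDNA read in all, from colon. In RPM both bases of SNORD44 were also higher in small intestine, with 889 and 603 at the first and 784 and 300 at the other. SNORD75 and SNORD44 are encoded in Gas5, a host gene of small nucleolar RNAs, and all 14 pileups in Gas5 lay in small nucleolar RNAs. Of the 9 genes on the list of hosts, 5 had a read, and Gas5 was the 1 with a pileup. Small RNAs with a pileup also lay in genes that are not on that list, such as Snord34 in Rpl13a.

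The reference used for matching held at least 35 bases of 599 annotated small RNAs, and 39 (6.51%) carried a pileup. They were mostly small nucleolar RNAs, 35 of 123 (28.5%), as against 1 of 457 microRNAs, 1 of 10 small nuclear RNAs, 2 of 8 RNAs of the class that holds RNase MRP RNA and 0 of 1 ribosomal RNA. Together the 39 RNAs had 38106 reads in small intestine and 75212 in colon, or 18722 and 21623 RPM. The 2 cDNA fragmented libraries had 180 and 594 reads on the same strand, or 8.01 and 23.95 RPM, and 20 and 14 of the 39 RNAs had none there. Reads on the opposite strand numbered 1 and 2 in the rRNA-depleted libraries. By cDNA fragmentation, where the strand of a read does not give that of the RNA, they numbered 155 and 815. Mir147, which lies in an exon of a messenger RNA, had 7 and 50 reads by rRNA depletion. By cDNA fragmentation it had 87 and 372 same-strand and 93 and 609 opposite reads, in libraries that are several times larger. For Mir147 these read numbers therefore show neither a clear gain nor a reversal. Reads that began more than 3 bases before the annotated microRNA, its pileup among them, are not counted here. The 39 RNAs together were far more abundant in the rRNA-depleted libraries, and there almost only on their own strand. They were chosen by their many reads in these libraries, which sets the difference in level in part. In the paper, RNA for SMART came from an RNeasy mini kit and RNA for the Whole Transcriptome Analysis Kit from a mirVana miRNA isolation kit. As the protocols thus differ in RNA isolation, RNA selection and cDNA synthesis, the steps behind the difference between them cannot be told apart.

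Reads of these RNAs began at few places. Among RNAs whose leading start point held 100 or more reads, it took a median of 58.1% of all reads of the RNA in small intestine (29 RNAs) and 61.8% in colon (35 RNAs). It lay within 3 bases of the annotated 5′ end for 16 of 29 and 20 of 35. A matched read takes 35 bases, so in a short RNA reads can begin only in its first part. In SNORD44, of 60 bases, no read began more than 28 bases from the annotated 5′ end. The reference also held only part of some of these RNAs, such as 66 of 90 bases of Snord12 and 71 of 325 of Scarna10. The place of the leading start point is set in part by these limits. Of 26 RNAs with such a start point in both tissues, 23 had the same leading base and 24 had leading bases within 3 bases of each other. The letters TGATG began at base 6, 7 or 8 of the window in 34 of the 84 pileups in small RNAs (40.5%). This position was chosen after the values had been seen, and only the strand of the reads was searched. The same holds for 13 of 1367 pileups in coding genes (0.951%), 35 of 2567 windows with 50 to 99 reads (1.36%) and 74 of 11701 windows with 20 to 49 reads (0.632%). With TGATG anywhere in the 35 bases the shares were 50%, 6.88%, 7.52% and 6.30% in the same order. The windows with 50 to 99 and with 20 to 49 reads are of all classes, and small RNAs were 2.14% and 1.14% of them. They therefore do not compare depths within small RNAs. Neighbouring start points can also share 1 TGATG, and the 34 pileups lay in 19 of the 39 RNAs.

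**Figure D1:**
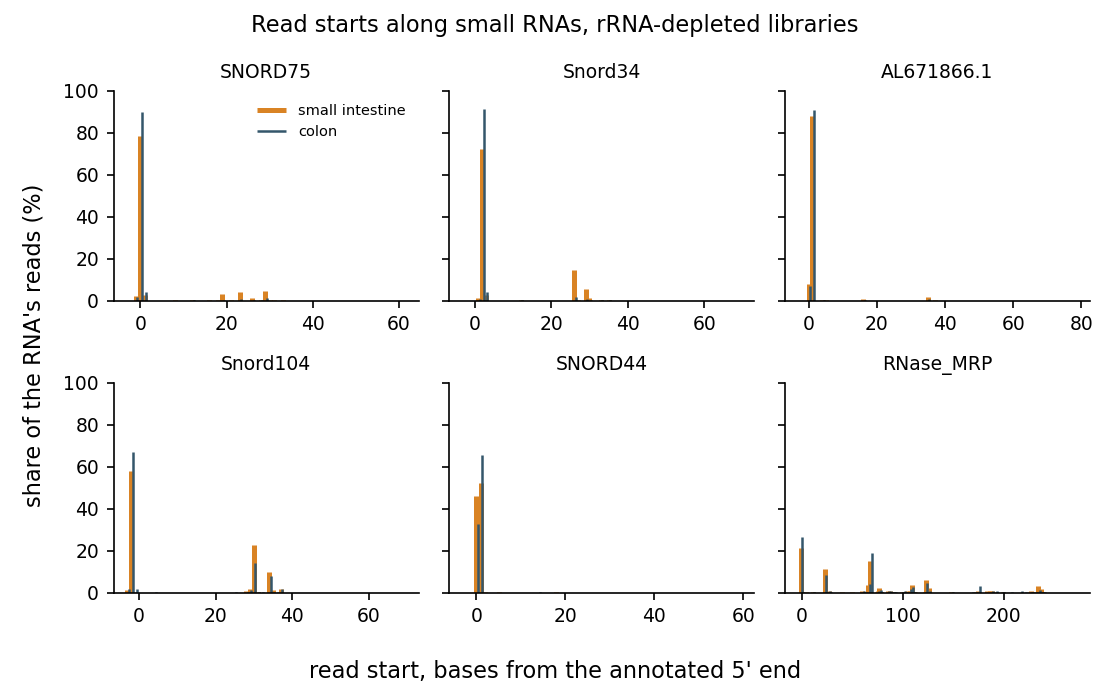
Share of each RNA's reads (vertical axis, %) that began at each base from the annotated 5′ end (horizontal axis) in the rRNA-depleted small intestine (orange) and colon (blue) libraries, with the colon lines drawn slightly to the right so that both can be seen. In SNORD75, Snord34 and AL671866.1 a single base near the 5′ end dominates, while RNase_MRP is read from several places along its length.

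Not every small RNA was read from its end. AC102570.1, a small nucleolar RNA of 87 bases with 8 pileups, had its leading start point 37 bases inside the RNA in both tissues. This start point held 1487 and 1414 reads, or 731 and 407 RPM. The start point close to the 5′ end of the RNA held 441 and 1186 reads. RNase MRP RNA had 7 pileups along its 271 bases. Its leading start point, 1 base before the annotated 5′ end, was read 329 times in the small intestine library and 1399 times in the colon library, or 21.5% and 26.6% of the reads of this RNA, and neither cDNA fragmented library held a read there. U6 had 3 pileups, all past 100 reads in small intestine alone, with 129, 120 and 100 reads there and 16, 13 and 21 in colon. None of the U6 reads at these places matched the reference without mismatch. Mir147 was the 1 microRNA with a pileup. It held 78 and 326 reads in the rRNA-depleted libraries and 2 and 7 in the cDNA fragmented ones, began before the annotated microRNA, and lay in an exon of the host gene.

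Of all 1647 pileups, 374 (22.7%) held 100 or more reads in both tissues. The share was 82.7% in Lars2 (129 of 156) and 16.4% outside it (245 of 1491, 14.6% to 18.4%). Outside Lars2 it was 60.7% in small RNAs (51 of 84, 49.5% to 71.2%), 40% in long noncoding RNAs (10 of 25, 21.1% to 61.3%) and 13.1% in coding genes (179 of 1367). The intervals treat start points as independent, which neighbouring ones are not, and the same read numbers chose the pileups, so this is no test. At least 1 read in the other tissue was found for 540 of 564 small intestine pileups outside Lars2 (95.7%) and for 1097 of 1172 colon pileups (93.6%). Over all start points of these libraries the shares were 36.3% and 21.2%, most of which rest on 1 read or a few. At start points outside Lars2 with 50 to 99 reads the shares were 91.1% and 91.4%, close to those of the pileups. All 99 pileups without a read in the other tissue lay in coding genes.

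In coding genes the leading pileups differed widely between tissues. Defa20, an α-defensin of Paneth cells, had 1486 reads (1411 to 1564) at base 22620549 of chromosome 8 in small intestine and 10 (4.80 to 18.4) in colon, and the cDNA fragmented libraries had 798 and 0. Lyz1, the lysozyme of Paneth cells, had 1033 and 39 reads by rRNA depletion and 286 and 7 by cDNA fragmentation. Both genes were thus read mainly in small intestine by either protocol. Oit1 had 43 reads (31.1 to 57.9) in small intestine and 4015 (3892 to 4141) in colon, with 2 and 52 cDNA reads. The pileup of 2210415F13Rik had 138 and 2416 reads, with 75 and 361 cDNA reads. At the pair of 1810030J14Rik start points, 13 and 2385 reads and 13 and 2344 reads were found, with 1 and 408 and 186 and 530 cDNA reads. These 3 genes were read mainly in colon. Spint2, an inhibitor of serine proteases, had 702 and 5377 reads but only 3 and 8 by cDNA fragmentation. Lgals4, a lectin of the intestinal epithelium, had 1010 and 2229 reads and 147 and 217 cDNA reads, and its pileup held 61.2% and 56.7% of the reads of its exon. For Spint2 and Lgals4, reads were plentiful in both tissues.

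The 5 genes outside Lars2 with most pileups were Clca3 (88 pileups), which is made by goblet cells, the carbonic anhydrase Car1 (65), 2210415F13Rik (53), and the apolipoproteins Apob (31) and Apoa4 (27), together 264 or 17.7% of the 1491. The deepest Clca3 pileup held 158 small intestine reads and 2243 colon reads, against 7 and 6 cDNA reads. The deepest of Car1 held 3 and 1525, against 0 and 469. All 65 Car1 pileups passed 100 reads in colon alone. The deepest Apob pileup held 454 and 25 reads, against 2 and 0 cDNA reads, and that of Apoa4 held 770 and 20, against 48 and 0. All 31 Apob and all 27 Apoa4 pileups passed 100 reads in small intestine alone.

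As a log2 ratio of colon to small intestine RPM, after 0.5 reads had been added, the 1491 pileups outside Lars2 had a median of 1.07 (quartiles -1.01 and 2.74), and 1003 (67.3%) were higher in colon. The medians were 1.21 in coding genes, 0.45 in small RNAs, -0.90 in long noncoding RNAs and -0.80 in Lars2. Because the colon library is larger, an equal RPM passes 100 reads more easily in colon. Over all coding genes apart from Lars2, 438 of 22237 (1.97%) held a pileup, hosts of small RNAs with a pileup included, and 17036 had a read in any library. Of the 16 listed Paneth and enterocyte genes, 10 held pileups, 125 in all, with a median of -6.33, and none of the 125 was higher in colon. Among 12 α-defensins, 4 held 12 pileups, with a median of -8.21 and none higher in colon. Of 10 listed colon genes, 8 held 97 pileups, with a median of 6.88 and 80 higher in colon. Car1 alone held 65 of the 97, so this median is mostly that of 1 gene. These lists hold genes known for 1 tissue and for high levels there, so their direction and their share with a pileup were set by the choice of the list. Of 100 cytosolic ribosomal protein genes, 28 held 67 pileups, with a median of 1.46 and 63 higher in colon, and 9 of the 67 lay in small RNAs within these genes. In bulk tissue, fewer cells of a type and less RNA per cell cannot be told apart.

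Marker genes of each tissue, summed as RPM, were higher in the libraries labelled with it. The 5 small intestine markers reached 17131 in the rRNA-depleted small intestine library and 486 in that of colon (36826 and 2910 by cDNA fragmentation), and the 4 colon markers reached 113 and 9512 (2277 and 77964). Smooth muscle markers (4 genes, 8 pileups) stood at 467 and 2688 (376 and 1380), higher in colon by either protocol. Of the 3 genes listed for B and plasma cells, with 5 pileups in all, Pigr is made by the epithelium, which carries antibodies through it, and gave 2947 and 2043. The others, Igj and Cd79a, stood at 725 and 745 (6943 and 712) and at 13.3 and 12.6 (29.4 and 14.3). The 5 pancreatic acinar markers, with 1 pileup, stood at 883 and 2.87 by rRNA depletion and at 0.712 and 139 by cDNA fragmentation, with Amy2a5 at 0 reads in all 4 libraries. A further 3 acinar genes, named after their values had been seen, held pileups in small intestine alone, with 435 and 4 reads at the 3 of Cela2a, 330 and 0 at the 2 of Ctrb1 and 338 and 2 at that of Cela3b. The same places held 0 and 21, 0 and 1, and 0 and 0 cDNA reads. Cela1 differed, with 99 and 236 reads at its 1 pileup. The part of other cell types in the pileup numbers was not tested.

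**Figure D2:**
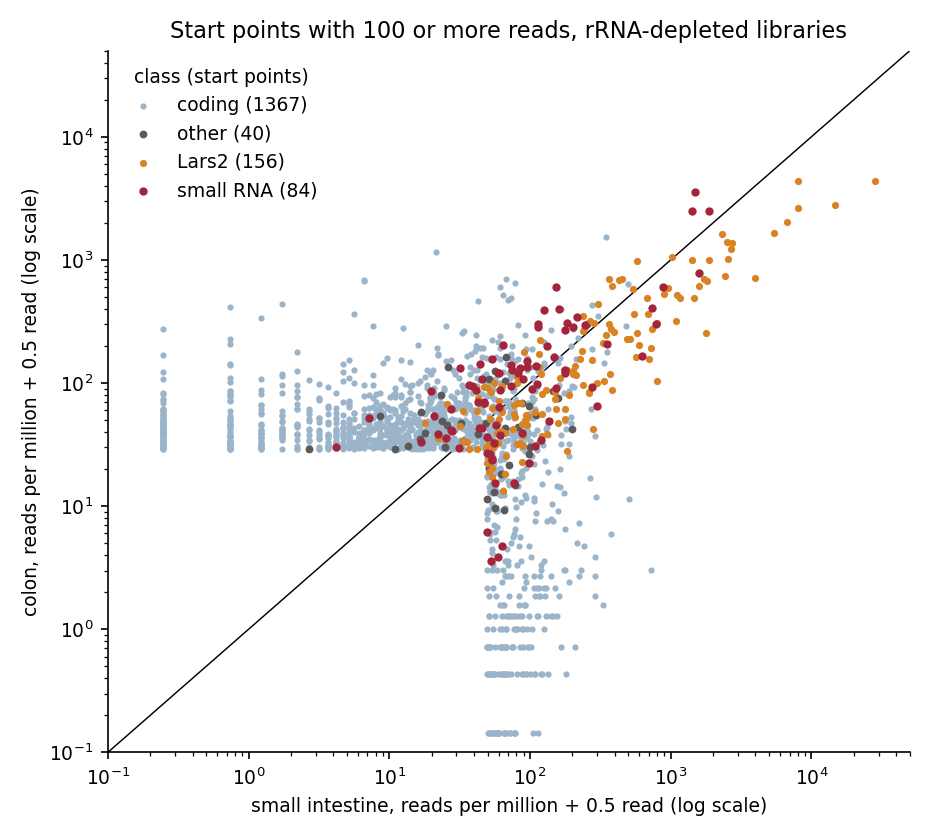
Each point is 1 of the 1647 pileups, with its RPM, after 0.5 reads were added, in the rRNA-depleted small intestine library (horizontal axis, log scale) and in that of colon (vertical axis, log scale), coloured by class. The line marks equal levels. Coding pileups spread to both sides, and Lars2 lies mostly below the line. Small RNAs lie nearer to it (quartiles of the log2 colon to small intestine ratio -0.79 and 0.98), though some lie further off.

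The cDNA fragmented libraries did not enter the choice of the pileups. For a read at the same place, only cDNA reads on the strand of the pileup were counted, although cDNA reads of either strand can come from the RNA. At the same base and strand, the cDNA fragmented library of the same tissue held at least 1 read for 400 of 564 pileups outside Lars2 in small intestine (70.9%, 67.0% to 74.6%) and for 934 of 1172 in colon (79.7%, 77.3% to 82.0%). Over all start points of the rRNA-depleted libraries the shares were 31.3% and 28.5%. The share rose with the number of reads, from 26.7% and 23.9% at start points with 1 read to 72.0% and 77.2% at those with 50 to 99. Above 100 reads it was 73.7% and 80.3% below 200 reads, and 65.0% and 78.5% from 200 reads. These shares mix the classes. For pileups in coding genes over both tissues the share was 80.7% at a threshold of 50 reads, 84.3% at 100 and 88.1% at 200. With 10 or more cDNA reads asked for, the shares of the pileups were 41.3% and 49.1%, against 37.2% and 36.6% at start points with 50 to 99 reads and 4.97% and 3.70% at all with 1 to 99.

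The classes differed in this respect. In coding genes 392 of 478 pileups in small intestine (82.0%) and 912 of 1068 in colon (85.4%) had a cDNA read at the same place. In small RNAs it was 4 of 62 (6.45%, 1.79% to 15.7%) and 6 of 73 (8.22%, 3.08% to 17.0%), and in long noncoding RNAs 0 of 18 (up to 18.5%) and 4 of 17 (23.5%, 6.81% to 49.9%). The intervals treat start points as independent, but the 84 pileups in small RNAs formed 45 blocks and the 1367 in coding genes 933. With 1 library per tissue and protocol on each side, no test was made. Cover was more common than a shared first base. A cDNA read of either strand overlapped the window for 56.5% and 74.0% of the small RNA pileups, and for 98.1% and 99.6% of those in coding genes.

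**Figure D3:**
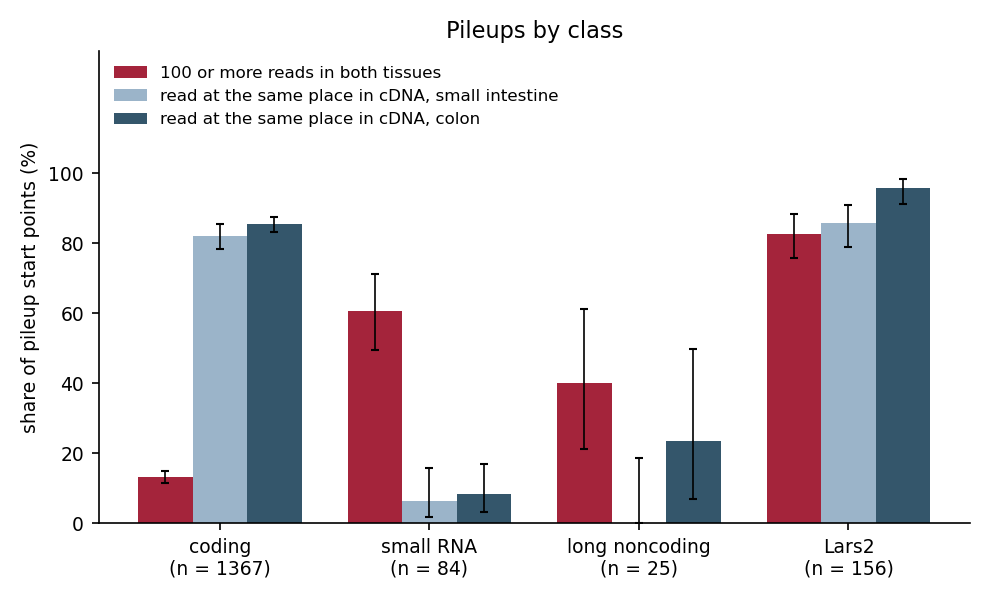
Share of pileups (vertical axis, %) that held 100 or more reads in both tissues (red) and that had a read at the same place in the cDNA fragmented small intestine (light blue) and colon (dark blue) library, by class. Error bars show exact 95% binomial intervals, which treat start points as independent. Of the 3 classes outside Lars2 that are drawn, small RNAs are shared most often, at 60.7%, and their bars for cDNA reads, 6.45% and 8.22%, lie far below those of coding genes, 82.0% and 85.4%.

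Within the exons of coding genes that held a pileup, a read at the same place in cDNA was found for 69.9% and 64.6% of start points with 1 to 9 reads, for 83.1% and 82.4% with 10 to 99 reads and for 82.0% and 85.4% of the pileups. The pileups of these exons thus differed little in this share from their neighbours with 10 to 99 reads. The median number of cDNA reads at the same place was 9 and 11 at the pileups and 9 and 7 at those neighbours. A coding pileup held a median of 22.0% of the reads of its exon in small intestine and 13.5% in colon. The cDNA reads at the same place made up a median of 0.290% and 0.418% of the cDNA reads of that exon. The choice of the pileups, which asked for many reads in the rRNA-depleted libraries, sets this difference in part.

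Among long noncoding RNAs, Malat1, a nuclear RNA, held 18 of the 25 pileups. Its deepest start point had 513 small intestine reads and 1049 colon reads. All 18 places together had 2903 and 3181 reads in the rRNA-depleted libraries and 0 and 1 in the cDNA fragmented ones, although the exon held 2213 and 3101 cDNA reads. Malat1 was thus read by both protocols, but with 1 exception not from these bases. BC018473, named here after its values had been seen, held 3 pileups with 710 and 309 reads and no cDNA read at the same places. None of these reads matched without mismatch, and the 3 windows had 300, 449 and 453 other places in the genome within 2 mismatches, so the reads cannot be assigned to BC018473 with certainty. The remaining long noncoding pileups were single ones in 4 genes. The pileup opposite an exon, at base 43526362 of chromosome 4, held 295 and 301 reads, which were all reads that began on that strand in its exon, and 1 cDNA read in each tissue. No rRNA-depleted read of this pileup matched without mismatch, and nearly all had 3 mismatches, the most allowed. Its window had 8 other places in the genome within 2 mismatches, so these reads cannot be assigned to this place with certainty. The 12 pileups in no GENCODE M1 exon lay in RefSeq exons of the matching reference. Of these, 8 lay on chromosome 11, 3 on chromosome 10 and 1 on chromosome 17. The exons held 3988 and 6776 same-strand cDNA reads on chromosome 11 and 15170 and 43772 on chromosome 10. The pileup on chromosome 17 had 112 and 45 reads, and no cDNA read overlapped its window.

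The 35-base windows of the pileups outside Lars2 resembled those of shallower start points in composition. Their first base was A in 48.4%, against 47.7% for start points with 50 to 99 reads and 48.1% for those with 20 to 49, and their median GC content was 48.6% in all 3 groups. Another place in the genome within 2 mismatches was found for 23.3% of the pileup windows and for 22.8% of those with 50 to 99 reads. In coding genes the share was 24.1%, in small RNAs 5.95% and in ribosomal protein genes 96.6%. Reads had been kept as unique within the exon reference, so copies outside it could not remove them, and levels of ribosomal protein genes are uncertain for this reason.

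The pileups of Lars2, which encodes the mitochondrial leucyl-tRNA synthetase, all lay in its last exon (chr9:123370617-123371782, plus strand) beyond the last coding base, 123370793. They began within 361 bases, from base 123370911 to 123371271. The exon held 277891 reads on the plus strand in the rRNA-depleted small intestine library and 186229 in colon, or 13.8% (13.7% to 13.8%) and 5.40% (5.37% to 5.42%) of all reads on chromosomes. By cDNA fragmentation it held 2318 and 5051, or 0.0104% and 0.0205%. The rRNA-depleted libraries had 0 and 1 reads on the minus strand. Of the cDNA reads, whose strand does not give that of the RNA, 50.02% and 53.1% lay on the plus strand. The plus-strand cDNA numbers are thus only part of the cDNA reads of this exon. Pileups took 98.8% and 97.7% of the exon's plus-strand reads by rRNA depletion. The same start points took 42.5% and 41.4% by cDNA fragmentation. Within the whole span of the pileups lay 99.98% and 99.94% of the exon's reads by rRNA depletion and 94.2% and 95.96% by cDNA fragmentation, so the reads of all 4 libraries crowded into it. More pileup reads were placed in Lars2 than in any other gene, 273279 of 403087 in small intestine and 181198 of 509668 in colon. This was 49.8% of both together, but where these reads came from is uncertain, as described below.

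Within the stretch the read numbers were uneven. The median over the 156 start points was 356 small intestine reads (36 to 57788) and 346.5 colon reads (46 to 15284), against 5 (0 to 24) and 10 (0 to 62) by cDNA fragmentation. At the deepest place, base 123371035, there were 57788 and 15284 reads, against 1 and 10 by cDNA fragmentation. The next, at base 123370951, had 30138 and 9671, against 3 and 15. The 5 deepest start points of each library took 48.9% of its Lars2 pileup reads (small intestine) and 30.96% (colon). A cDNA read at the same place was found for 85.7% and 95.9% of the Lars2 pileups. Their log2 ratios of colon to small intestine ran from -2.94 to 1.40.

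**Figure D4:**
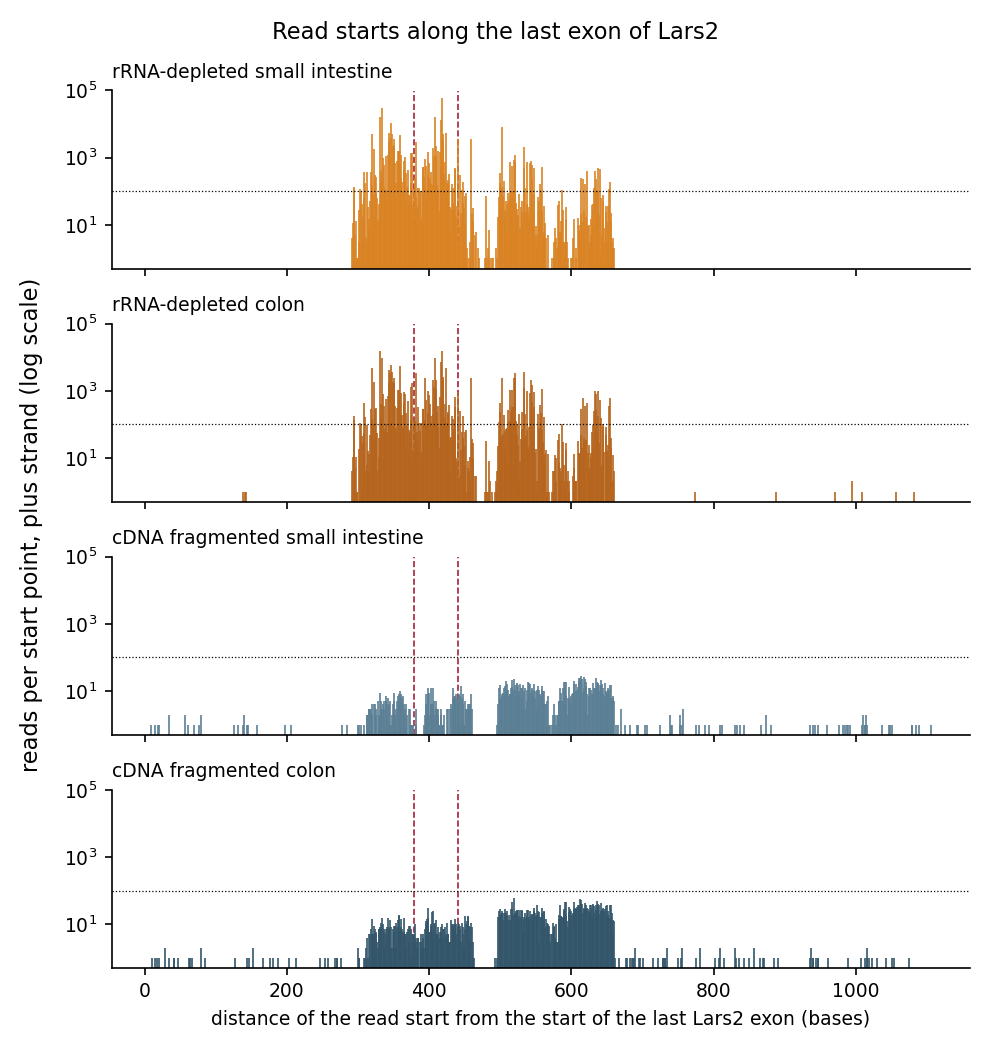
Plus-strand reads per start point (vertical axis, log scale) by distance of the read start from the start of the last Lars2 exon (horizontal axis, bases), with 1 panel per library. The dotted line marks 100 reads, and dashed red lines mark the bases 123370996 and 123371058. In the rRNA-depleted libraries reads crowd into 1 stretch, up to 57788 and 15284 per start point, and the reads of the cDNA fragmented libraries lie mostly in the same stretch, where no pileup start point reaches the dotted line.

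Many Lars2 reads differed from the reference at the same bases. Here and below, the reads that cover a base are counted over all start points and both strands. At base 123370996, 98.7% of 44187 covering reads in small intestine and 98.8% of 32004 in colon carried C where the reference base is G (G21C in the first Lars2 window above, counted from 1 at the start of the window). The cDNA reads carried it in 94.4% of 197 and 93.3% of 418. At base 123371058, G took the place of T in 96.1% of 115896 and 97.0% of 49722 reads (T24G in the second window), and in 93.7% of 238 and 93.6% of 559 cDNA reads. Both differences thus stood in nearly all reads of all 4 libraries. At base 123370915 and base 123370917 the rRNA-depleted reads nearly all carried T (99.7% and 99.7%, and 294 of 294 reads and 99.4%), while 16.7% and 38.1%, and 35.7% and 48.3% of 12 to 29 cDNA reads did. A T at base 123371218 was carried by 55.2% and 52.4% of the reads, and by 55.5% and 57.8% of the cDNA reads. No read without mismatch was found at 52 of the 140 Lars2 pileups in small intestine and 47 of the 145 in colon.

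All 156 Lars2 windows had another place in the genome within 2 mismatches, with a median of 4 such places, and 96 (61.5%) had an identical one. None of these places lay in another exon of the matching reference, and none on the mitochondrial chromosome. Of the Lars2 windows, 56 had a recurrent difference, meaning a base substitution carried by at least 50% of the reads of the pileup. With the differing base put in, 53 of these windows were found elsewhere in the genome without mismatch, at up to 4 places. The reads at these windows can therefore come from those places, so the level of Lars2 and its tissue ratio are uncertain. No ribosomal RNA sequence was used here, so neither the Lars2 windows nor the pileup window on chromosome 17 were compared with ribosomal RNA.

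Outside Lars2 the mismatch classes of pileup reads were close to those of other reads. Of the reads at pileups, 44.3% (44.0% to 44.5%, small intestine) and 47.7% (47.5% to 47.9%, colon) had no mismatch, against 40.7% and 43.5% of the reads at start points with 1 to 99 reads. Reads with 3 mismatches, the most allowed, made up 15.3% and 12.9%, against 17.6% and 15.1%. Among windows that lay inside 1 exon, the share without mismatch was 47.6% and 49.2% in coding genes, 40.6% and 45.3% in small RNAs and 21.6% and 27.1% in Lars2. In Lars2 most other reads had 1 mismatch, 46.0% and 41.8%. For 32 of the 1491 windows an exon border was crossed, which leaves no read without mismatch.

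Recurrent differences were found at 29 sites outside Lars2. At 23 of them the base lay only at read positions 31 to 34, close to the end of the read, and at 22 of these under 1% of the cDNA reads carried it, with 0% at 16. The exception was Gnb2l1, named here after its values had been seen, with 17.9% and 17.8%. At Mir147, T32A was carried by 96.5% of 85 and 96.0% of 348 reads and by none of 49 and 326 cDNA reads. The other 6 sites lay earlier in the read. At U6 (G23A in the window above) A was carried by 98.3% of 577 and 99.2% of 240 reads and by all 5 and 7 cDNA reads, and the window with this base was found at up to 152 places in the genome. On chromosome 4 (T4G in the window above) G was carried by 97.0% of 303 and 96.2% of 312 reads but by none of 37 and 118 cDNA reads. As stated above, the place of origin of these rRNA-depleted reads is uncertain. An earlier U6 base was changed in 99.4% of 154 and 96.2% of 52 reads, with 1 cDNA read in each tissue, and a base of BC018473 in 41.1% of 834 and 31.7% of 360, with no cDNA read. The sites in Gm10653 and A930015D03Rik, named after their values had been seen, were changed in all rRNA-depleted reads and in 87.5% to 99.2% of the cDNA reads.

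**Figure D5:**
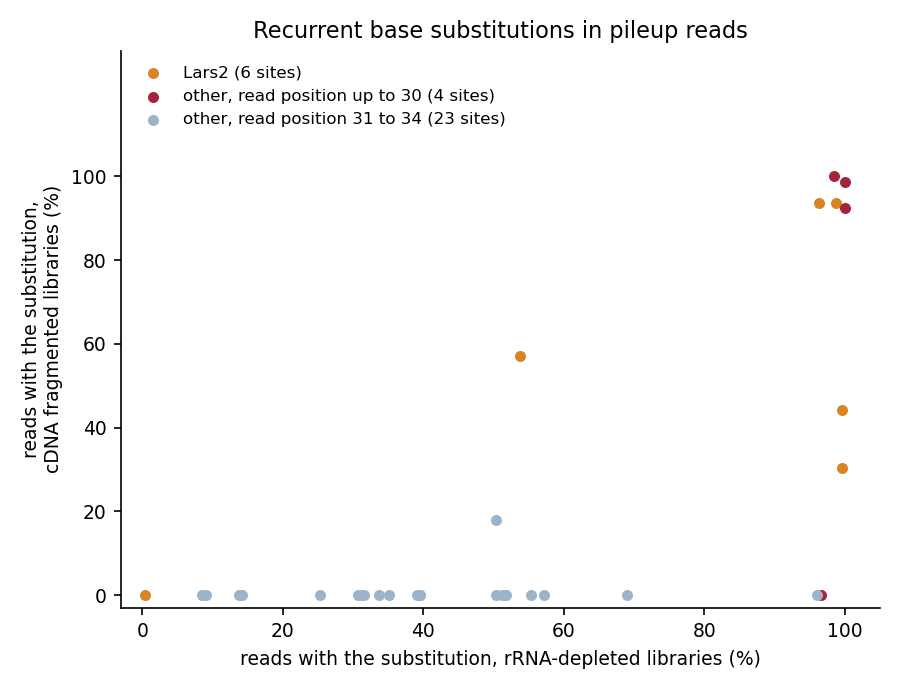
Share of reads with a recurrent substitution at the site (%) in the rRNA-depleted libraries together (horizontal axis) and in the cDNA fragmented libraries together (vertical axis), for the 33 sites with 10 or more cDNA reads. The sites at read positions 31 to 34 lie near 0 on the vertical axis apart from 1, while the 6 Lars2 sites spread along it.

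The pileups just inside the threshold had 100 reads in their deeper library. The first 5 in the order of the chromosomes were in Vil1 (100 reads in small intestine and 30 in colon), Car1 (1 and 100), S100a6 (2 and 100) and Clca3 (6 and 100, and 5 and 100). Start points just outside it had 99 reads. The first in the same order included those in Pigr (60 and 99), Ndufa8 (6 and 99), 2010106G01Rik (25 and 99) and Slc5a1 (99 and 5).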

How the data were processed

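The authors matched 35 colors per read to RefSeq exons of mm9 and to exon-exon junctions, with up to 3 mismatches, and deposited the uniquely placed reads of 4 libraries as match files (other values: positions, strands, mismatches and colors), with tables of exon positions. The paper describes another matching, to the whole genome with Bioscope, and the version of the pipeline behind the deposited files is not given in the sources used here. The paper describes polyadenylated RNA for its second protocol, while the labels give ribosomal RNA-depleted RNA, and the labels are used here. An adjacent pair of colors that fits 1 base substitution counts once in the deposited mismatch numbers. This gives the deposited number for 98.9% of 948863 pileup reads, as against 65.4% when each color counts.

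Reads were counted by reference number, strand and position, and positions were carried to mm9 through the exon table. Exons were named after GENCODE M1, with 3 bases of tolerance. Windows were compared with the whole mm9 genome on both strands with up to 2 mismatches. Python 3.11.15, numpy 2.4.6, pandas 2.3.3, scipy 1.17.1, pysam 0.24.0, numba 0.67.0 and matplotlib 3.10.9 were used. With 1 library per group no test was made. Counting, placement and the mismatch reading were checked on simulated data.

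Members and lists were chosen with earlier results of these data known. Named genes were Lars2, those of the 12 deepest pileups of each library, the 5 genes with most pileups, listed noncoding RNAs with a pileup and the 5 start points on either side of the threshold, up to 30 genes, and 1 gene that meets the rule is not reported here. Of per-sample columns, 0 were left unused. Alternatives were other thresholds, at most 1 mismatch, other block widths, other definitions of a cDNA read at the same place and other scalings.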

Additional observations from a re-analysis of the deposited data

Results flagged for a closer look

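Start points on exon-exon junctions were left out of the pileups. In the rRNA-depleted small intestine library 4 of them held 100 or more reads, 637 reads in all, and 3 did in the colon library, 1836 reads in all. A single junction start point held 1507 of the latter. The summed level of the pancreatic acinar markers, 883 RPM (reads per 1000000 uniquely placed reads) in the rRNA-depleted small intestine library, fell on opposite sides between protocols, with a log2 colon to small intestine ratio of -8.24 by rRNA depletion and 7.51 by cDNA fragmentation. The Clca3 start point at base 144678764 had a log2 ratio of 3.05 by rRNA depletion and -0.35 by cDNA fragmentation, the latter from 7 and 6 reads. Its whole exon held 951 and 1855 same-strand cDNA reads, and all 88 Clca3 pileup places held 689 and 2110. Both of these were higher in colon, as by rRNA depletion. With 1 library on each side, neither difference between protocols was tested. Among all 881 pileups outside Lars2 with 10 or more cDNA reads, 713 (80.9%) lay on the same side between tissues by both protocols, but the read numbers that chose the pileups fix the side of many of them in the rRNA-depleted libraries.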

How the results depend on the processing

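Of 23 alternatives fixed in advance, the 3 that bear on a direction, that of the median tissue ratio, kept it. The number of blocks, 1012, became 1440 when start points were joined within 1 base and 862 within 100 bases. The number of pileups, 1647, became 4248 at 50 reads, 626 at 200 reads, 1013 with at most 1 mismatch and 1048 with a threshold scaled to library size. The share past the threshold in both tissues became 19.7% at 50 reads and 25.6% at 200 reads. The share of pileup reads in Lars2 became 52.8% with at most 1 mismatch, 41.1% at 50 reads and 59.4% at 200 reads. The share of pileups outside Lars2 with a cDNA read at the same place, 76.8% over both tissues, became 88.4% within 3 bases, 96.3% for any overlap on either strand, 46.5% for at least 10 reads and 74.5% with at most 1 mismatch. The share of reads without mismatch, 46.7%, became 47.5% as a median over start points, 46.2% at 50 reads and 47.7% at 200 reads. The median log2 colon to small intestine ratio, 1.07, became 0.94 when scaled to reads outside Lars2, 1.81 when scaled to total reads and 0.87 with blocks weighted equally. The causes were not tested.

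Among alternatives added after seeing the data, the share of small RNA pileups past the threshold in both tissues ran from 50% to 61.2%, and that of coding pileups from 9.13% to 14.6%. No paired analysis was possible because each group holds 1 library, and no replicate could be left out for the same reason. Depth limits the cDNA comparison: a place with 0 reads may hold up to 3.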
